A study of Homo sapiens with 7 samples.

Results

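T-box factors are transcription factors that share the T-box, a DNA-binding domain, and 10 of their genes were examined in HCT116 cells, a human colorectal carcinoma line. The 10 members (TBX1, TBX2, TBX3, TBX4, TBX5, TBX6, TBX15, TBX18, TBX20 and TBX21) were chosen by name out of 20163 protein-coding genes of the GENCODE annotation on hg19, and all were found there. For each member, every peak that overlapped the gene body or the 10 kb on each side was taken, and this stretch is called the window here. The study grew the cells in 96-well plates at 200000 cells per well, sheared their chromatin for 6 min in the plate with the PIXUL ultrasound instrument, and did ChIP with antibodies to H3K4me1, H3K4me3, H3K9Ac, H3K27Ac, H3K27me3, H3K36me3 and CTCF. Each antibody gave 1 library from 1 well of the same line, so no value has a replicate error and no difference was tested. The Methods describe no treatment or sorting of the cells used for ChIP-seq. The peak lists of 6 marks were used, and H3K27Ac was not analysed here. Peak names carry the cell line in 5 of these lists and not in that of H3K27me3. No expression was measured in these samples with which to check the cell type by its markers. The paper compared its peaks with ENCODE peaks of HCT116 and with HCT116 expression from another source.

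In vertebrates, T-box genes are switched on in restricted places and times during development. TBX2 and TBX3 encode repressors, TBX4 and TBX5 act in limb buds, and TBX5 and TBX20 act in the heart. TBX1 acts in the pharyngeal arches, TBX6 in the mesoderm that gives rise to somites, TBX15 and TBX18 in skeletal and other mesenchyme, and TBX21 (T-bet) in T helper cells. H3K4me3 and H3K9Ac mark promoters in use, H3K4me1 marks enhancers and the flanks of promoters, H3K36me3 lies over transcribed bodies, and H3K27me3 is the mark that Polycomb places over silent developmental genes. CTCF recognises DNA through its zinc fingers and helps to fold chromosomes.

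The stretches just upstream of the transcription start site (TSS) are shown first for 2 members, because they stand for different patterns of marks described below. Each is the 300 bases before the TSS of the canonical transcript on hg19, 5′ to 3′ on the strand of the gene, with CpG dinucleotides in capitals. Neither overlaps an annotated exon of its gene. TBX18 (chr6:85474317-85474616, minus strand) had H3K4me3 and H3K9Ac at its TSS and 23 CpGs in this stretch. TBX21 (chr17:45810302-45810601, plus strand) had H3K4me1 and CTCF, with no listed H3K4me3, and 18 CpGs.
TBX18: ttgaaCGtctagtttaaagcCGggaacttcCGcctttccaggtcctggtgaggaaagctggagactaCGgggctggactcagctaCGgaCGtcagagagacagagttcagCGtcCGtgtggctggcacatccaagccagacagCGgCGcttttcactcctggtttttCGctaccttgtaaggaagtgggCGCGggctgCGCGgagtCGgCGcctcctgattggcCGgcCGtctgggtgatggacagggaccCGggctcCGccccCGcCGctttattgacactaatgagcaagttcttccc
TBX21: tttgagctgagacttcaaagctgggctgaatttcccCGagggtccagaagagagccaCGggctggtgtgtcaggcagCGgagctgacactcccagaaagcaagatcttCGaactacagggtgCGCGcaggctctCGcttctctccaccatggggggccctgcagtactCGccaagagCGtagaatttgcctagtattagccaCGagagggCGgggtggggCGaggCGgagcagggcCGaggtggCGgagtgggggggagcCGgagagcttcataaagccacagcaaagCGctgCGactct

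Each peak has a q-value and a fold enrichment from the peak caller. The fold enrichment is a linear ratio to the background, which the Methods name as input. As in the Methods, H3K4me1 and H3K27me3 peaks were taken past the limits at a q-value below 1e-03 (−log10 q above 3) and a fold enrichment above 2. For the other marks the limits were a q-value below 1e-10 (−log10 q above 10) and a fold enrichment above 5. CTCF, for which no limits are stated, was treated like the latter. In the 10 windows, which span 26.1 to 127 kb, 126 deposited peaks were found, and 49 of them passed. These were 17 of 21 for H3K4me1, 10 of 13 for H3K4me3, 9 of 19 for H3K9Ac, 13 of 23 for CTCF, 0 of 10 for H3K36me3 and 0 of 40 for H3K27me3. In the whole lists, 63.9%, 79.1%, 37.2%, 54.8%, 0.225% and 2.81% passed, in the same order. The median window of the members was 49.8 kb, and that of all protein-coding genes 47.2 kb. The lists hold no read counts, so depth is unknown and fold enrichments were compared only within a mark.

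**Figure D1:**
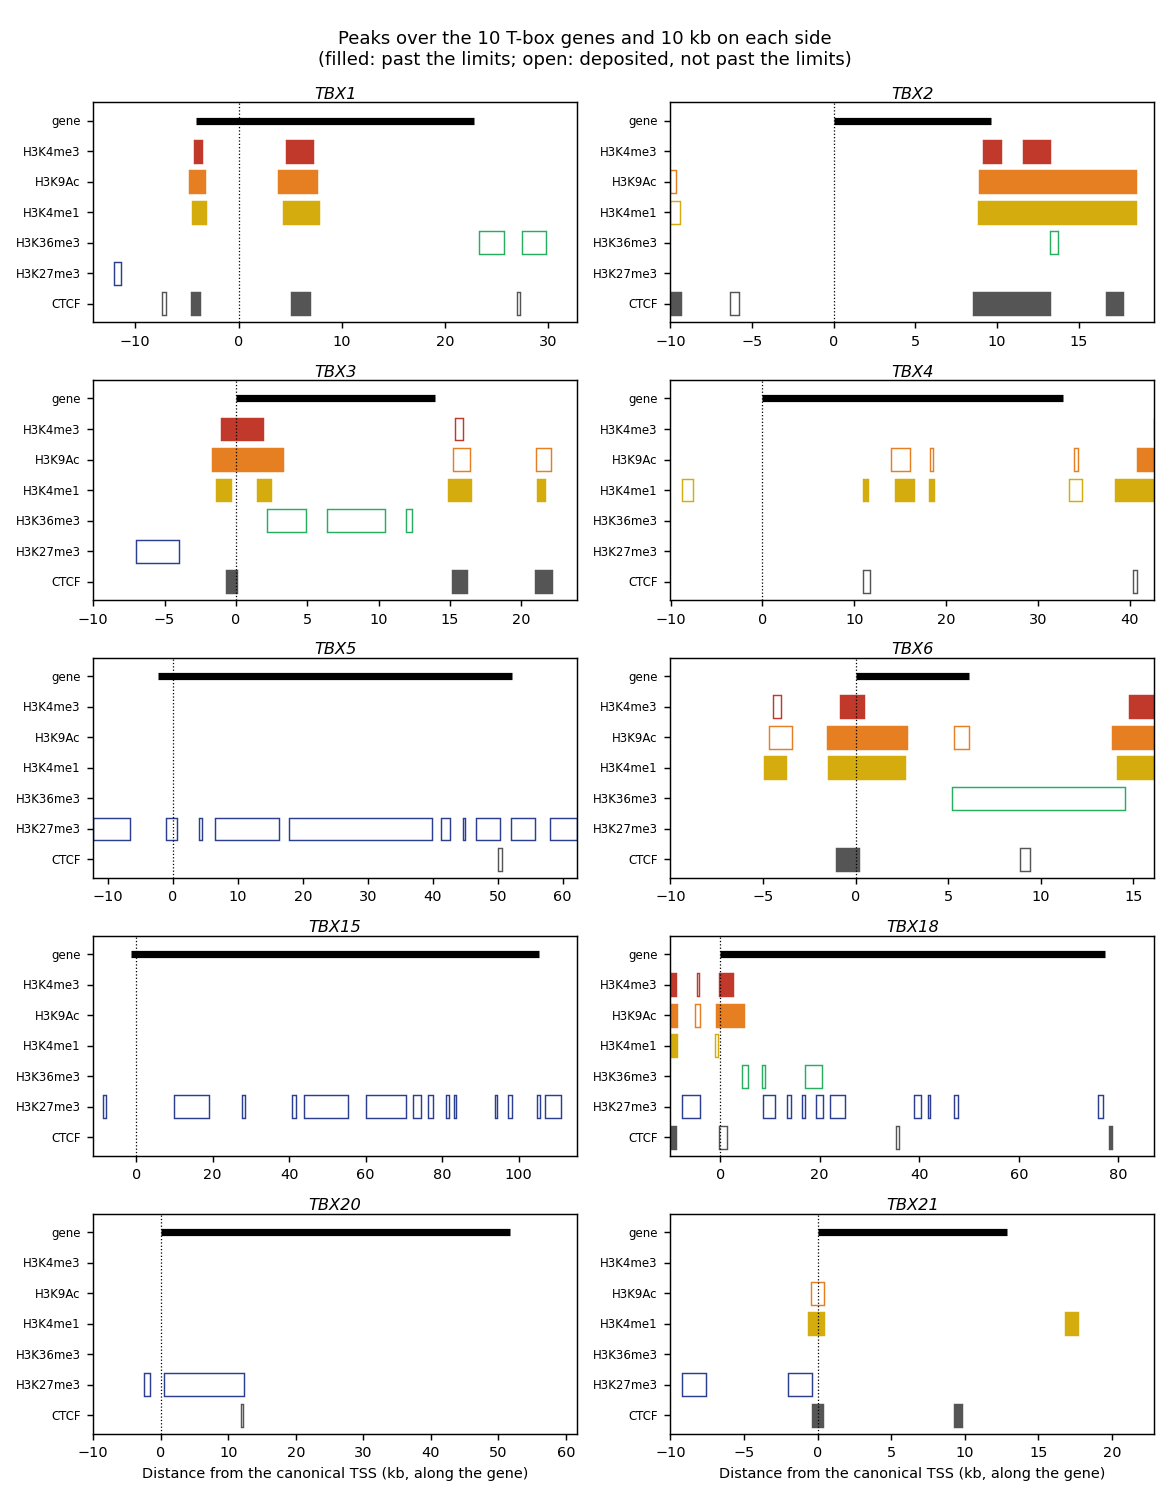
Peaks of the 6 marks over each of the 10 T-box genes, with the distance from the canonical TSS in kb along the gene on the x axis and the marks on the y axis. Filled boxes are peaks past the limits, open boxes are other deposited peaks, the black bar is the gene, and boxes are clipped at the window. TBX3, TBX6 and TBX18 carry filled H3K4me3 and H3K9Ac boxes at the dotted TSS line, whereas TBX5, TBX15 and TBX20 carry no filled box at all.

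At the TSS, within 1 kb on each side, 3 of the 10 members (TBX3, TBX6 and TBX18) had an H3K4me3 peak, against 59.1% of all protein-coding genes. The same 3 members had an H3K9Ac peak there, against 58.5%. An H3K4me1 peak was found at the TSS of TBX3, TBX6 and TBX21, 3 of 10 against 49.1%. CTCF peaks lay at the TSS of these same 3 members, against 13.6%. H3K36me3 and H3K27me3 peaks past the limits were found at the TSS of 0 members, against 0.298% and 1.22% of all protein-coding genes. The other 6 members (TBX1, TBX2, TBX4, TBX5, TBX15 and TBX20) had no peak past the limits at the canonical TSS, as did 33.9% of all protein-coding genes.

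Over the whole windows the members were closer to the background. H3K4me3 was found in 6 windows (69.1% of all protein-coding genes), H3K9Ac in the same 6 (68.3%), H3K4me1 in 7 (71.9%) and CTCF in 6 (62.4%). The members with H3K4me3 in the window were TBX1, TBX2, TBX3, TBX4, TBX6 and TBX18. TBX21 added H3K4me1. H3K36me3 and H3K27me3 past the limits were in 0 windows, against 0.789% and 3.94%. The windows of TBX1, TBX2 and TBX4 therefore held active marks, but away from the canonical TSS.

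**Figure D2:**
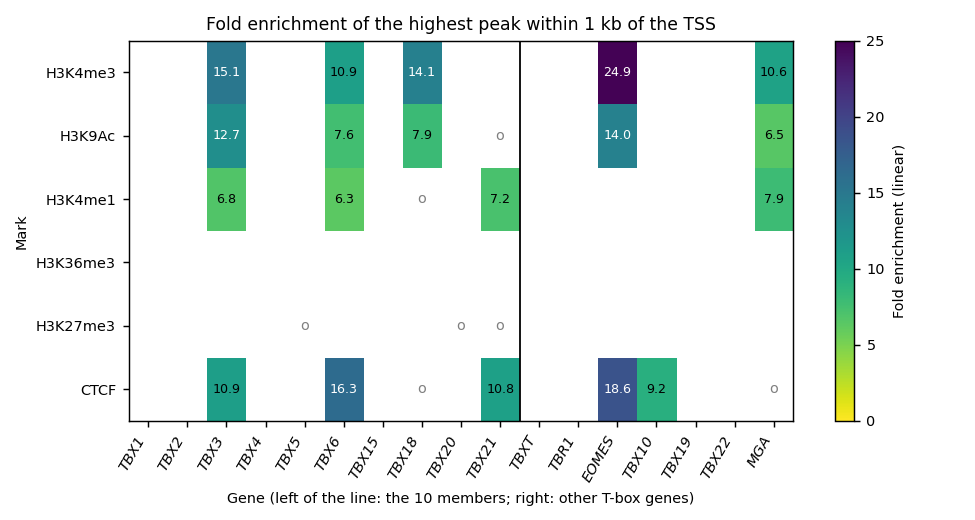
Fold enrichment (linear, colour and printed value) of the highest peak past the limits within 1 kb of the canonical TSS, with the 17 T-box genes on the x axis and the marks on the y axis. A grey o is a deposited peak not past the limits, and empty cells have no listed peak. Values past the limits stand at 4 of the 10 members, TBX3, TBX6, TBX18 and TBX21.

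Among the TBX2, TBX3, TBX4 and TBX5 genes, which form a subfamily, only TBX3 had peaks past the limits at its canonical TSS. TBX3 (ENSG00000135111, minus strand of chromosome 12, 115108060 to 115121980) encodes a repressor of cell-cycle inhibitors and developmental genes. Its H3K4me3 peak (fold enrichment 15.1) began 1043 bp before the TSS and ended 1887 bp after it, over exon 1 with its 5′ UTR and into intron 1. The H3K9Ac peak (12.7) was wider, beginning 1645 bp before the TSS and ending 3324 bp after it. H3K4me1 did not cover the TSS itself and stood on both sides of it. Its peaks lay from 1419 to 362 bp upstream (6.76) and from 1506 to 2458 bp downstream (4.05). A CTCF peak of 773 bp (10.9) began 669 bp before the TSS and ended in exon 1. The H3K4me3 and H3K9Ac peaks also contained the TSS of TBX3-AS1, a long non-coding RNA on the other strand, and the lists cannot tell the promoters apart. Among the 11924 protein-coding genes with H3K4me3 at the TSS, 17.2% had a lower fold enrichment than TBX3 (median 22.5), and 85.1% had a narrower peak (median 2060 bp). Of the 9892 genes with H3K4me1 at the TSS, 90.1% had a lower fold enrichment than TBX3.

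Further into the TBX3 window, 3 H3K36me3 intervals were listed downstream of the TSS, at 2185 to 4889 bp, 6404 to 10424 bp and 11900 to 12367 bp, all within the gene. They covered 7194 bp, and their fold enrichments were 2.78, 3.50 and 3.36, under the limit of 5. An H3K27me3 interval of 3028 bp (3.29), also not past the limits, lay from 7036 to 4009 bp upstream. Past the 3′ end of the gene, 2 sites carried CTCF and H3K4me1 together, at 15129 to 16206 bp (CTCF 9.45, H3K4me1 3.87) and 20980 to 22173 bp (CTCF 12.1, H3K4me1 3.85) from the TSS. The H3K4me1 values of these sites lay just past the q-value limit (−log10 q of 3.24 and 3.01).

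TBX2 (ENSG00000121068, plus strand of chromosome 17, 59477204 to 59486827), the closest relative of TBX3, showed a different picture. No peak of any of the 6 marks was listed within 1 kb of its canonical TSS, although this TSS is rich in CpG. The ratio of observed to expected CpG was 0.869 over 500 bp on each side, above 82.1% of protein-coding genes. Marks lay instead at the 3′ end of TBX2. Past the limits, an H3K9Ac peak of 9611 bp (12.7) and an H3K4me1 peak of 9634 bp (8.23) began in exon 7, in the 3′ UTR, and reached 18476 and 18488 bp from the TSS. Within them were 2 H3K4me3 peaks, at 9149 to 10227 bp (15.1) and at 11556 to 13257 bp (12.2). The latter contained the TSS of the long non-coding RNAs TBX2-AS1, which overlaps TBX2 on the other strand, and LINC02875. The H3K9Ac and H3K4me1 peaks also contained the TSS of 1 annotated TBX2 transcript. CTCF was high here, with peaks of 4740 bp (21.8) over the same stretch, of 1044 bp (21.8) at 16636 to 17679 bp, and of 777 bp (19.6) from 10115 to 9339 bp upstream of TBX2. The values of these 3 were the highest CTCF values in any of the 10 windows. No H3K27me3 was listed in the window.

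TBX4 (ENSG00000121075, plus strand of chromosome 17, 59529765 to 59562471) lies 42.9 kb downstream of TBX2. Its canonical TSS had no listed peak of any mark within 1 kb. An H3K4me1 peak past the limits lay within 1 kb of another annotated TSS of the gene. Past the limits, the gene body held H3K4me1 only, with peaks at 10974 to 11481 bp (4.09), 14451 to 16525 bp (4.96) and 18126 to 18677 bp (4.24) from the TSS, in introns and over exon 5. Past the 3′ end, an H3K4me1 peak of 9272 bp (7.33), an H3K9Ac peak of 6123 bp (9.50) and an H3K4me3 peak of 2068 bp (8.62) lay over one another. The H3K4me3 peak entered the window by 89 bp only, and with an overlap of at least 200 bp TBX4 leaves the count of H3K4me3 windows. No H3K27me3 or H3K36me3 was listed for TBX4. Between TBX2 and TBX4 the lists held 3 CTCF peaks past the limits and 0 H3K27me3 intervals.

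TBX5 (ENSG00000089225, minus strand of chromosome 12, 114791716 to 114846247) was the opposite case. Its window of 74.5 kb held 0 listed H3K4me3, H3K9Ac, H3K4me1 or H3K36me3 peaks at any level. Instead it held 10 H3K27me3 intervals that covered 53.1 kb, or 71.2% of the window. The longest inside the gene measured 22062 bp (3.39, −log10 q of 2.29) and spanned exons 7 and 8. The interval at the TSS, which began 1116 bp before it and ended 629 bp after it, had the lowest value (2.71, −log10 q of 1.23). The one other listed peak in the window was CTCF (4.69), not past the limits. None of the 10 H3K27me3 intervals reached the limit of 3 in −log10 q, and their highest value was 2.71. An interval of 22988 bp (3.45) left the window on the 5′ side, towards TBX3, which lies 262 kb away on the same chromosome. Of the stretch between the genes, 57.8% was under 12 deposited H3K27me3 intervals, of which 0 were past the limits. That stretch also held 5 CTCF and 4 H3K4me1 peaks past the limits and 0 of H3K4me3 or H3K9Ac. These include the CTCF and H3K4me1 peaks past the 3′ end of TBX3 described above. The adjacent pairs thus differed in deposited H3K27me3 intervals: TBX2 and TBX4 had 0 between them, and TBX5 and TBX3 had them over most of their gap. Past the limits, both gaps held 0 H3K27me3 peaks.

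**Figure D3:**
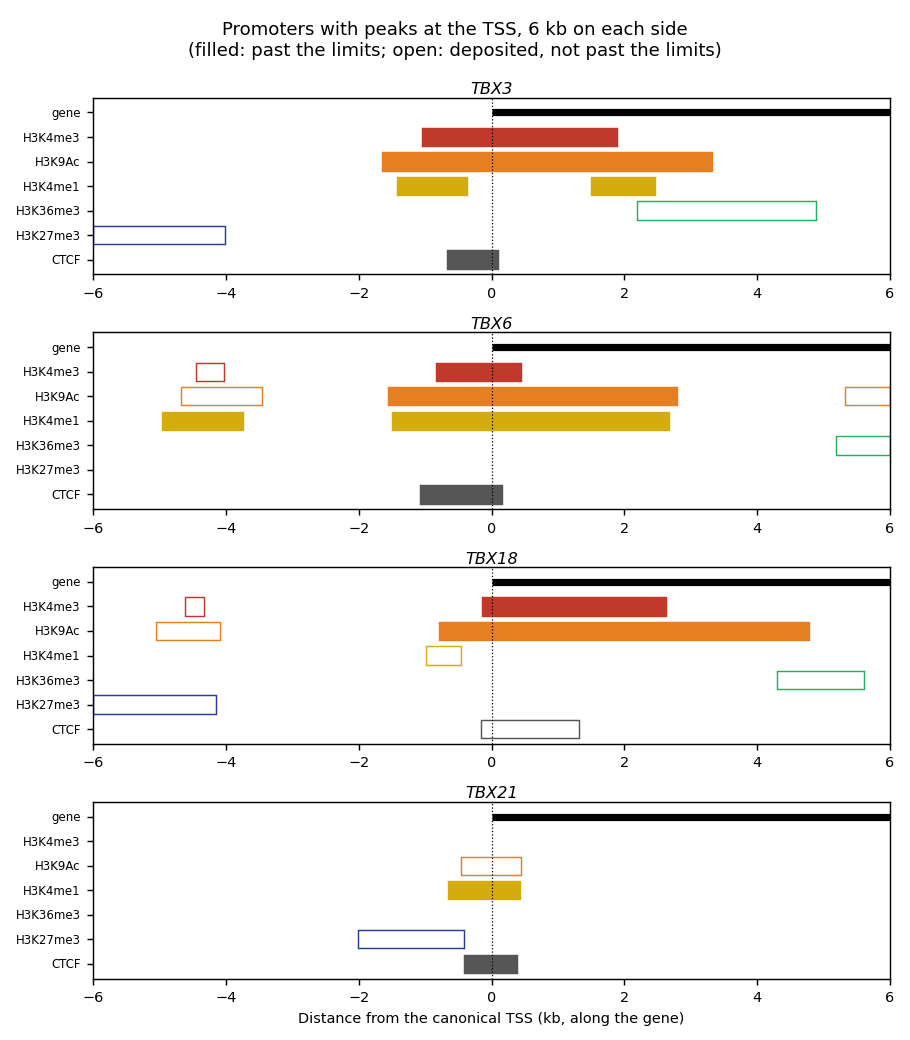
Peaks within 6 kb of the canonical TSS of the 4 members with peaks past the limits there. The x axis gives the distance from the TSS in kb along the gene and the y axis the mark. Filled boxes are past the limits, and open boxes are other deposited peaks. At TBX3 the H3K4me1 boxes flank the TSS, at TBX6 a single box spans it, at TBX18 H3K4me1 has an open box upstream, and TBX21 has H3K4me1 and CTCF with no H3K4me3.

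TBX1, TBX15, TBX18 and TBX20 belong to a common subfamily, and only TBX18 had H3K4me3 at the canonical TSS. TBX18 (ENSG00000112837, minus strand of chromosome 6, 85397069 to 85474316) acts in the sinus node and in the mesenchyme of the ureter. Its H3K4me3 peak (14.1) ran from 146 bp before the TSS to 2622 bp after it, over exons 1 and 2. The H3K9Ac peak (7.93) ran from 787 bp before it to 4778 bp after it. Both were wide for their height: 81.1% of genes with H3K4me3 at the TSS had a narrower and 14.4% a lower peak, and for H3K9Ac these shares were 86.2% and 7.26%. H3K4me1 (3.14) and CTCF (3.09) were listed at the TSS below the limits. At 8794 to 10312 bp upstream, a peak of H3K4me3 (11.4) and overlapping peaks of H3K9Ac (9.75), H3K4me1 (4.01) and CTCF (13.4) were found. This place held no canonical TSS of an annotated gene and no TSS of a TBX18 transcript. Alternative TSSs of other genes were not searched. The window also held 10 H3K27me3 intervals, none past the limits, which covered 15.3 kb (15.8% of the window). None of them overlapped its promoter peaks. The interval from 7673 to 4148 bp upstream overlapped H3K9Ac (3.70) and H3K4me3 (2.82) intervals below the limits, at the TSS of another annotated gene.

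TBX1 (ENSG00000184058, plus strand of chromosome 22, 19744226 to 19771116) had no listed peak within 1 kb of its canonical TSS, which lies 4075 bp inside the gene. This TSS had the most CpGs of the members, 135 in the 1000 bp around it, more than 97.3% of protein-coding genes. Both neighbouring sites were marked. Upstream, from 4321 to 3501 bp, an H3K4me3 peak (7.47) lay with H3K9Ac (7.82), H3K4me1 (6.76) and CTCF (10.9) over the 5′ end of the gene, where TSSs of 3 annotated TBX1 transcripts lie. Downstream, an H3K4me3 peak from 4593 to 7173 bp had a fold enrichment of 30.6, with H3K9Ac at 17.8, H3K4me1 at 5.86 and CTCF at 7.69. This site covered exons 5 to 7 of the canonical transcript, with coding sequence and 3′ UTR, and passed its end. The H3K9Ac and H3K4me1 peaks there also contained the TSS of 1 annotated TBX1 transcript. The H3K4me3 value was the highest in any of the 10 windows except that at the TSS of PPP4C, a neighbour of TBX6. When every annotated TSS was used in place of the canonical one, TBX1 and TBX2 joined the members with H3K4me3 at a TSS, 5 of 10 against 61.8% of all protein-coding genes by the same rule. For H3K9Ac it was the same 5 members (61.1%). For H3K4me1 it was 6 members (TBX1, TBX2, TBX3, TBX4, TBX6 and TBX21, 55.5%), and for CTCF 5 members (21.7%).

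TBX15 and TBX20 had no peak past the limits in their windows. TBX15 (ENSG00000092607, minus strand of chromosome 1, 119425669 to 119532179) is the longest member, with 107 kb. Its window held 14 H3K27me3 intervals and 0 listed peaks of the other 5 marks. The intervals covered 45.5 kb of 127 kb, and the longest measured 11672 bp (3.22), 10466 bp (3.23) and 9243 bp (3.33). None lay at the TSS, the closest being 7785 bp upstream and 9919 bp downstream. TBX20 (ENSG00000164532, minus strand of chromosome 7, 35242042 to 35293711) held an H3K27me3 interval of 11820 bp (3.41) from 528 bp downstream of the TSS, over exons 1 to 4, and a short interval upstream (2.61). The only other listed peak was CTCF within intron sequence (3.53), not past the limits.

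TBX6 (ENSG00000149922, minus strand of chromosome 16, 30097114 to 30103245) is the shortest member and lies among close neighbours. At its TSS were an H3K4me3 peak of 1287 bp (10.9), an H3K9Ac peak of 4349 bp (7.61), an H3K4me1 peak of 4172 bp (6.31) and a CTCF peak of 1243 bp (16.3). H3K4me3 was both low and narrow here: 6.93% of genes with such a peak had a lower and 9.56% a narrower one. For H3K4me1, 86.0% had a lower fold enrichment. The H3K4me1 peak reached over exons 1 to 3, whereas H3K4me3 ended 446 bp after the TSS. Higher H3K4me3 and H3K9Ac peaks of its window lay at a neighbour. At the TSS of PPP4C, which encodes the catalytic subunit of a protein phosphatase, H3K4me3 had a fold enrichment of 32.7 and H3K9Ac 17.7. An H3K4me1 peak upstream (5.22) contained the TSS of YPEL3 and YPEL3-DT. The H3K36me3 interval of 9371 bp (4.35) had the highest fold enrichment of that mark in any window. It began 5196 bp from the TBX6 TSS, near the 3′ end of the gene, and ran on over PPP4C. No H3K27me3 was listed.

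TBX21 (ENSG00000073861, plus strand of chromosome 17, 45810602 to 45823488) encodes T-bet, the factor that directs T helper cells to make interferon gamma. Its TSS had H3K4me1 and CTCF past the limits with no listed H3K4me3. The H3K4me1 peak ran from 654 bp before the TSS to 433 bp after it, and its fold enrichment of 7.20 was above that of 93.0% of genes with H3K4me1 at the TSS. The CTCF peak (10.8) ran from 413 bp before it to 384 bp after it. H3K9Ac was listed over the same place at 4.48, under the limit of 5. An H3K27me3 interval (3.37, −log10 q of 2.12) reached from 2004 to 413 bp upstream and overlapped the H3K4me1 peak. It was the only one of the 40 H3K27me3 intervals of the members to overlap a peak of H3K4me3, H3K9Ac or H3K4me1 past the limits. Only 167 protein-coding genes (0.828%) had the same pattern of the 6 marks at the TSS. The 4 marks of TBX3 and TBX6 were shared by 1829 genes (9.07%), and the H3K4me3 and H3K9Ac of TBX18 by 2494 (12.4%).

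H3K27me3 was described with all deposited intervals, because the q-value limit removed every one over the members. By this looser rule 7 of the 10 members had H3K27me3 in the window, against 30.0% of all protein-coding genes, and 3 (TBX5, TBX20 and TBX21) had it within 1 kb of the TSS, against 9.60%. The fold enrichments of the 40 intervals ranged from 2.43 to 3.60 with a median of 3.10, and the whole list had a median of 2.93. In share of the window covered, TBX5 stood above 98.3% of protein-coding genes, TBX15 above 94.7%, TBX20 above 90.8% and TBX18 above 90.2%. TBX21 (9.77% of the window) and TBX3 (8.93%) stood above 87.4% and 86.8%. TBX1 (1.51%) stood above 75.7%. TBX2, TBX4 and TBX6 were at 0, as were 70.0% of all protein-coding genes. For H3K36me3, all deposited intervals reached 5 of 10 windows (TBX1, TBX2, TBX3, TBX6 and TBX18), against 65.9% of protein-coding genes.

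**Figure D4:**
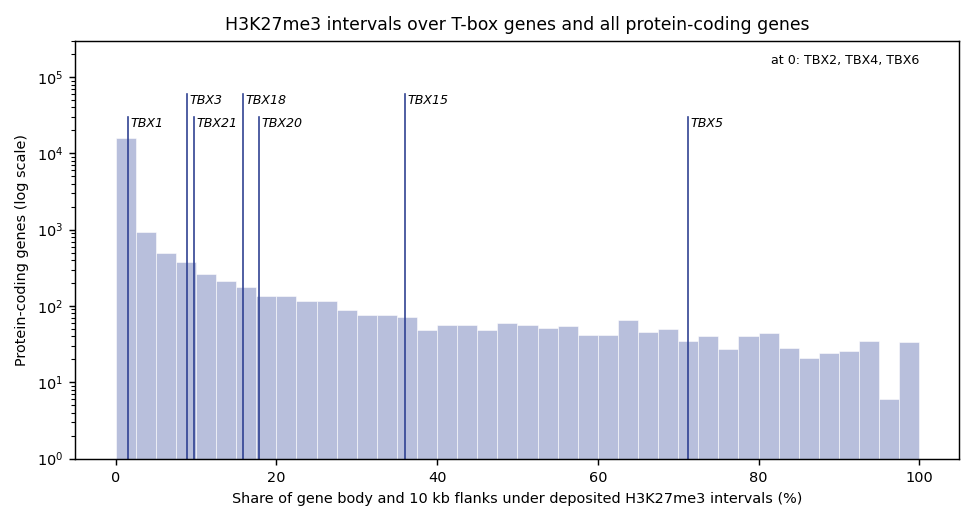
Number of protein-coding genes (y axis, log scale) by the share of the window under deposited H3K27me3 intervals (x axis, %), with a labelled line for each member above 0. TBX5 (71.2%) and TBX15 (45.5 kb of its 127 kb) stand in the right tail, and TBX2, TBX4 and TBX6 are at 0.

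Of the 13 CTCF peaks past the limits in these windows, 10 overlapped a peak of H3K4me3, H3K9Ac or H3K4me1. Among the 16850 such CTCF peaks in the windows of all protein-coding genes the share was 34.4%. For H3K4me3 alone it was 6 of 13, against 15.8%. Peaks of 1 member lie close together and are not independent, and the difference was not tested. A degenerate form of the CTCF core of 12 bases, in which 4 positions allow 2 bases each, was searched on both strands. It was matched in 2 of the 13, against 22.0% of the CTCF peaks in the windows of all protein-coding genes. Both matches are shown with the core in capitals and 10 bases on each side, 5′ to 3′ on the strand of the match. The TBX3 match lies at chr12:115100570-115100601 on the plus strand, 3′ of the gene and in the farther of the sites with H3K4me1. The TBX21 match lies at chr17:45820169-45820200 on the minus strand, inside the gene, in a CTCF peak (9.55) over exons 2 and 3 that overlapped no histone mark past the limits.
TBX3 core: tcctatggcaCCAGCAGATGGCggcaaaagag
TBX21 core: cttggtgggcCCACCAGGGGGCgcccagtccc
The CTCF peaks at the TSS of TBX3, TBX6 and TBX21 and the high peaks beside TBX2 had no match to this form.

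The median GC content over 500 bp on each side of the TSS was 66.4% for the members and 61.3% for all protein-coding genes, and the median number of CpGs was 85.5 and 66.0. Members with H3K4me3 at the TSS had 71 (TBX3), 80 (TBX6) and 69 (TBX18) CpGs. Members with no peak past the limits there ranged from 45 (TBX5) and 54 (TBX15) through 91 (TBX20), 94 (TBX4) and 118 (TBX2) to 135 (TBX1). TBX21 had 93. The members without peaks thus lay on both sides of those with H3K4me3.

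The other 7 T-box genes (TBXT, TBR1, EOMES, TBX10, TBX19, TBX22 and MGA) were looked at in the same way. Of these, 2 had H3K4me3 and H3K9Ac at the TSS, EOMES (24.9 and 14.0) and MGA (10.6 and 6.49). The shares of all protein-coding genes were 59.1% and 58.5%. EOMES, a factor of early mesendoderm and of T cells, had the highest H3K4me3 value at a TSS of all 17 T-box genes, and CTCF at 18.6. MGA, a partner of MAX that carries a T-box, had the highest H3K4me1 at a TSS (7.90). TBX10 had CTCF only (9.21). TBXT (brachyury), TBR1, TBX19 and TBX22 had no peak past the limits at the TSS, and TBX22 had no listed peak of any mark in its window. All deposited H3K27me3 intervals reached 1 of these 7 windows (TBXT, 5.90% covered), compared with 7 of the 10 members and 30.0% of all protein-coding genes. Longer windows can hold more intervals. Of these 7 windows, only those of TBX19 (53.5 kb) and MGA (172 kb) exceeded the member median of 49.8 kb. The difference between the lists was not tested.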

How the data were processed

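PIXUL-ChIP-seq was done in HCT116 cells with 1 library per antibody. Reads were mapped by the authors with BWA 0.7.12 (hg19), and MACS2 was run on every library separately in its broad mode (cutoff 0.1), whereas the labels list MACS 1.4.2. The authors deposited, for each peak, its fold enrichment (a linear ratio to background, named as input in the Methods), and p-values and q-values as −log10. The deposited lists are not filtered, and the limits of the Methods were applied here. Peak names carry the cell line in all lists but that of H3K27me3.

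The 10 members were matched by symbol in GENCODE 44 on hg19, among 20163 protein-coding genes, and no peak lay beyond a chromosome end of that build. Overlap required at least 1 bp. Code was tested on simulated data and checked against bedtools 2.31.1, with 0 windows differing. Python 3.11.15, numpy 2.4.6, pandas 2.3.3, matplotlib 3.10.9 and pyfaidx 0.9.0.4 were used. All members and all other T-box genes were named by rule. Other genes in the member windows were named where their TSS lay under a peak past the limits. Members and lists were chosen with earlier results of these data known. No test was made, since every mark had a single library, and the depth of the libraries is unknown. H3K27Ac was not analysed here. Alternatives were all deposited peaks, other limits, other flanks, other TSS windows, every annotated TSS and a larger overlap. The upstream sequences of the other members are not reported here.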

Additional observations from a re-analysis of the deposited data

How the results depend on the processing

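No paired analysis was possible because there was a single library for a mark (n = 1). Of 84 values recomputed under the alternatives, 12 moved, either from 0 to a higher value or by over 1.5 times. Of the other 72, 14 were counts of 0 under a stricter rule, which could not change. With all deposited peaks, 5 members had H3K36me3 in the window (65.9% of all protein-coding genes by that rule) and 7 had H3K27me3 (30.0%). At the TSS, 3 members had H3K27me3 (9.60%). These counts stood in place of 0. The length of the windows covered then rose from 0 to 26997 bp for H3K36me3 and 133593 bp for H3K27me3. When each mark was given the limits used for the others, 1 member (TBX6) had an H3K36me3 peak in the window. Under the same change H3K4me1 fell from 7 to 5 windows and from 3 to 2 TSSs. H3K9Ac rose from 6 to 7 windows and from 3 to 4 TSSs, and CTCF from 6 to 8 windows. The changes for H3K4me1, H3K9Ac and CTCF were of no more than 1.5 times. With a flank of 50 kb, 1 member (TBX21) had H3K36me3 and 1 (TBX21) had H3K27me3. For this flank and the exchanged limits, the shares of all protein-coding genes were not computed. When every annotated TSS was used, members with a peak at a TSS rose from 3 to 5 for H3K4me3, 5 for H3K9Ac, 6 for H3K4me1 and 5 for CTCF, against 61.8%, 61.1%, 55.5% and 21.7% of all protein-coding genes by that rule. More peaks, sequence or TSSs enter in each of these by construction, except for H3K4me1 and H3K27me3 under the exchanged limits, where fewer peaks enter. With an overlap of at least 200 bp, 5 members in place of 6 had H3K4me3 in the window. The depth of each library is unknown, so a peak that is not listed was not detected in that library and is not shown to be absent.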

Other observations

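The closest H3K27me3 peaks past the limits lay around TBX21, outside its window. An H3K27me3 peak of 4699 bp (fold enrichment 4.27) ended 10.6 kb before the 5′ end of the gene. On the 3′ side, peaks of 3466 bp (4.42) and 15200 bp (3.52) began 26.8 kb and 34.2 kb past the gene. An H3K36me3 peak of 37707 bp (5.80) ended 44.4 kb before its 5′ end. The other 9 members had no peak of these marks past the limits within 50 kb of the gene body.

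The T-box element AGGTGTGA, the core of the site that T-box proteins bind, was searched on both strands of 1 kb on each side of each TSS. It was found at 0 of the 10 members and 0 of the 7 other T-box genes, against 9.98% of all protein-coding genes. These letters are 1 form of the site, and other forms were not searched.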
